A study of Homo sapiens with 4 samples.

Results

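Aminoacyl-tRNA synthetases are the enzymes that join each amino acid to its transfer RNA (tRNA), so that the ribosome can read the tRNA as that amino acid. Human cells carry separate nuclear genes for most of the cytosolic enzymes, whose symbols usually end in 1, and for the mitochondrial enzymes, whose symbols end in 2. Several cytosolic enzymes sit in a multi-synthetase complex held together by the scaffold proteins AIMP1, AIMP2 and EEF1E1. When charged tRNA or amino acids run short, the kinase GCN2 is activated and the transcription factor ATF4 is translated, and genes of amino acid uptake, amino acid synthesis and several cytosolic synthetases are among the known targets of ATF4. The genes described here are 38 of the 23622 in the deposited table, chosen by symbol: 22 cytosolic members, which are 19 synthetase genes and the 3 scaffold genes, and 16 mitochondrial synthetase genes. All 38 were present in the table and all 38 passed the filter on low values. GARS1 and KARS1 were counted as cytosolic, although each of these genes makes the enzyme of both compartments.

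The values come from RNA sequencing of MV4-11, an established human acute myeloid leukemia (AML) line with an MLL rearrangement and an internal tandem duplication in FLT3. The 4 libraries form 2 groups of 2. The NC group is labelled wild type with no treatment, and the sh-IRF1 group is labelled wild type with knockdown of IRF1, the transcription factor interferon regulatory factor 1. The study's methods describe knockdown by short hairpin RNA in a lentiviral vector with puromycin selection and a hairpin control called sh-NC. The headers of the deposited table name the NC columns sh_NC, as that control is called, whereas the sample labels give no treatment, and which hairpin each sh-IRF1 library carried is not given. The methods state in general that experiments were repeated independently, but with more repeats than the 2 libraries of a group here. The labels do not tie the replicates to separate cultures, so the p-values measure the spread between these libraries, which may be technical. The comparison asks which genes differ in level when IRF1 is reduced.

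Each library held between 17635908 and 18695337 reads assigned to genes, as recovered from the deposited values. IRF1 had normalized counts of 785 and 738 in the NC libraries and 430 and 432 in the sh-IRF1 libraries, 56.6% of the NC level. Both sh-IRF1 libraries therefore lay below both NC libraries for the targeted gene (log2 fold change -0.82, SE 0.0904, limma adjusted p = 1.69e-10). All 10 genes of a myeloid leukemia marker list had values, and their summed level was 40961 and 41022 normalized counts in the NC libraries and 36337 and 36430 in the sh-IRF1 libraries. Of the 10 genes 5 fell and 2 rose, where 21.9% of all genes tested fell and 20.3% rose. FLT3 was the largest part of the sum, and its fall was about as large as that of the sum. Its normalized counts were 17391 and 17412 in NC and 12745 and 12634 in sh-IRF1 (log2 fold change -0.46, SE 0.0268, limma adjusted p = 2.75e-19). MPO, a granule enzyme of myeloid precursors, was at 37.3% of its NC level, and LYZ, lysozyme, at 180%. Among the markers of other cells, the 2 measured B cell genes of a list of 3 summed to 84.1 and 112 in NC and 235 and 289 in sh-IRF1, almost all of it CD79A, and KRT8 with KRT18, the 2 measured genes of 4 epithelial markers, summed to 254 to 343 and 362 to 392. Lists of 3 T cell and 3 erythroid markers had no gene in the table and were not analysed here. The part of these marker differences in the results below was not tested, and fewer cells of a kind and less RNA per cell cannot be told apart in bulk RNA.

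Most cytosolic members had lower levels in the sh-IRF1 libraries, and most mitochondrial members did not pass the test. Of the 22 cytosolic members, 16 fell, none rose and 6 did not pass the test at a Benjamini-Hochberg adjusted p of 0.05. Of the 16 mitochondrial members, 1 fell, 4 rose and 11 did not pass. For comparison, 21.9% of the 14120 genes tested fell and 20.3% rose by the same rule. The median log2 fold change was -0.36 over the cytosolic members, 0.099 over the mitochondrial members and -0.0019 over all genes tested. No test was made of the difference between the compartments as groups.

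A stricter call also required a log2 fold change beyond 0.5 in size, which 7.56% of all genes tested met in the downward and 8.27% in the upward direction. By this rule 6 members fell, namely TARS1, WARS1, GARS1, MARS1, IARS1 and the mitochondrial WARS2, and LARS2 alone rose. Both sh-IRF1 libraries lay below both NC libraries for 17 of 22 cytosolic members and for 5 of 16 mitochondrial members, where 35.0% of all genes tested did so. They lay above both NC libraries for QARS1 alone among the cytosolic members and for 8 mitochondrial members, against 34.2% of all genes tested.

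**Figure D1:**
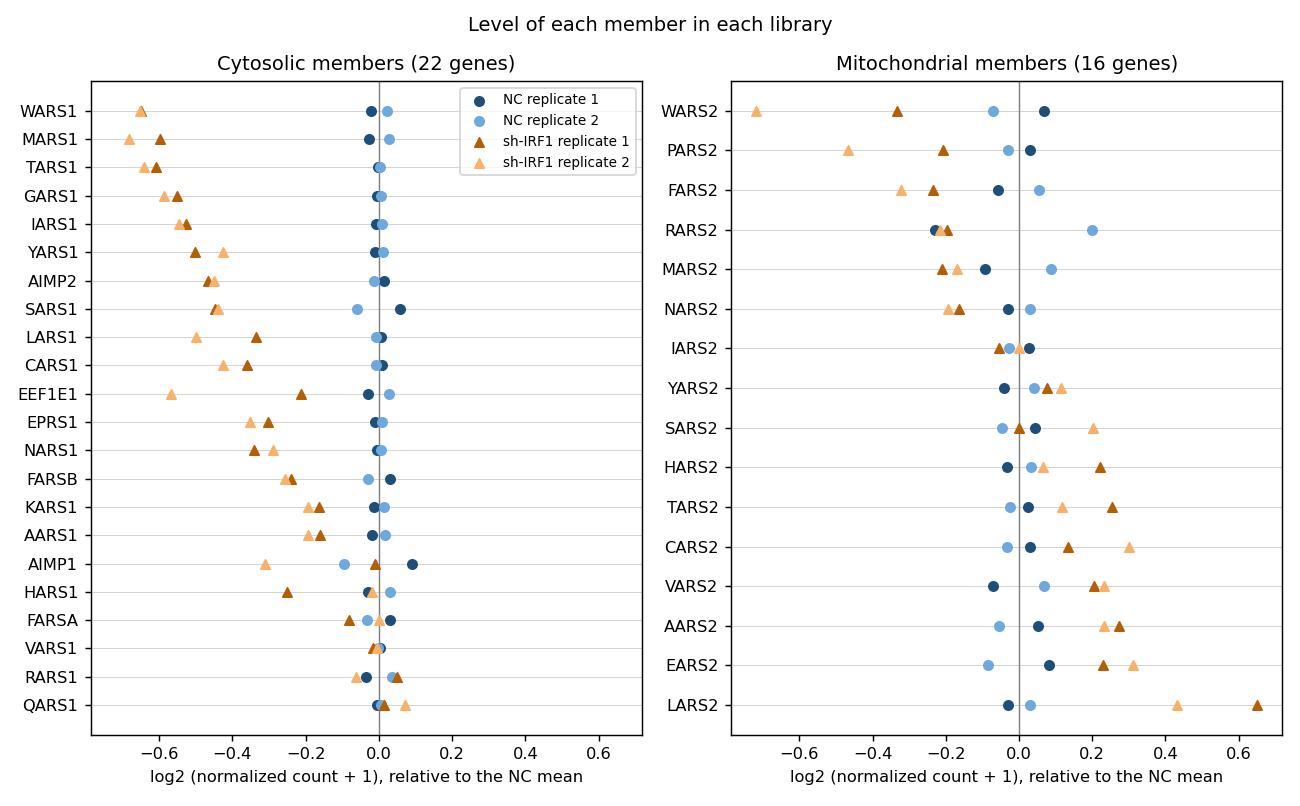
Level of each member in each library, on the log2(normalized count + 1) scale and relative to the mean of the 2 NC libraries, with cytosolic members on the left and mitochondrial members on the right, ordered by fold change. Circles are NC libraries and triangles sh-IRF1 libraries, and the triangles lie to the left of the circles for 17 of 22 cytosolic and 5 of 16 mitochondrial members.

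TARS1, the threonyl-tRNA synthetase (ENSG00000113407, chr5:33440696-33468091, plus strand of GRCh38), had the smallest p of all members. Its normalized counts were 11807 and 11860 in NC and 7764 and 7586 in sh-IRF1. The sh-IRF1 libraries held 64.9% of the NC level, a log2 fold change of -0.62 (SE 0.0303, limma adjusted p = 2.48e-22), and the groups were separated by far more than the replicates differed. TARS1 ranked 43 by p among the genes that were lower in the sh-IRF1 libraries.

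WARS1, the tryptophanyl-tRNA synthetase (ENSG00000140105, chr14:100333790-100376805, minus strand), is well known as an interferon gamma-induced enzyme. It had normalized counts of 8778 and 9046 in NC and 5682 and 5666 in sh-IRF1. This was 63.7% of the NC level and the largest downward change of any member (log2 fold change -0.65, SE 0.0330, limma adjusted p = 1.33e-21). An antisense gene overlaps 10.6% of its exonic length, and no use of strand in the counting is given in the sources used here.

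MARS1, the methionyl-tRNA synthetase of the complex (ENSG00000166986, chr12:57475445-57517569, plus strand), charges both the initiator and the elongator methionine tRNA. Its normalized counts were 6903 and 7163 in NC and 4644 and 4379 in sh-IRF1 (64.2% of NC, log2 fold change -0.64, SE 0.0366, limma adjusted p = 1.05e-19). The groups did not overlap, and 13.3% of its exonic length is shared with other genes, mostly with ARHGAP9 on the opposite strand.

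GARS1, the glycyl-tRNA synthetase (ENSG00000106105, chr7:30580533-30634033, plus strand), had normalized counts of 9301 and 9371 in NC and 6365 and 6218 in sh-IRF1. The level in sh-IRF1 was 67.4% of NC (log2 fold change -0.57, SE 0.0322, limma adjusted p = 7.25e-20). IARS1, the isoleucyl-tRNA synthetase of the complex (ENSG00000196305, chr9:92210207-92293854, minus strand), had normalized counts of 9667 and 9766 in NC and 6741 and 6649 in sh-IRF1. That is 68.9% of the NC level (log2 fold change -0.54, SE 0.0317, limma adjusted p = 3.00e-19). For both enzymes the sh-IRF1 replicates lay close together and well below NC. With scaling to total reads IARS1 was at -0.49 and passed the test but not the 0.5 limit.

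YARS1, the tyrosyl-tRNA synthetase, completed the 6 cytosolic members with the smallest p. Its normalized counts were 7519 and 7634 in NC and 5353 and 5636 in sh-IRF1 (72.5% of NC, log2 fold change -0.46, SE 0.0346, limma adjusted p = 1.26e-15). YARS1 passed the test but not the 0.5 limit, and it had lower values in both sh-IRF1 libraries.

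The promoters of the members were then searched for short letter patterns. ATF4 binds a composite site with a C/EBP partner, of which the core can be written TGATGNAA. RefSeq promoters of GRCh38.p14, from 250 bases before to 50 bases after each gene's start, were matched by symbol for 33 of the 38 members, and both strands were searched. AARS2, LARS1, VARS1, VARS2 and YARS1 had no entry. TGATGNAA was found in 7 of 19 cytosolic promoters (AARS1, CARS1, GARS1, IARS1, MARS1, NARS1 and TARS1) and in 1 of 14 mitochondrial promoters (YARS2), against 4.46% of all 27305 genes in the table, a gene counting where any of its starts held a match. No match overlapped a match of the other 3 patterns searched. The windows below show 4 genes that fell beyond 0.5, then AARS1, which fell least among the holders, and YARS2, each along the gene's strand, 5′ to 3′, with the match in capitals; most read as the reverse complement of the pattern.
TARS1, chr5:33440927-33440994, plus strand: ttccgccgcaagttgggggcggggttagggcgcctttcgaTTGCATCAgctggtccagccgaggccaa
GARS1, chr7:30594805-30594877, plus strand: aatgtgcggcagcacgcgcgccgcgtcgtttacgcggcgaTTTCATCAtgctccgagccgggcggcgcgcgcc
MARS1, chr12:57488024-57488096, plus strand: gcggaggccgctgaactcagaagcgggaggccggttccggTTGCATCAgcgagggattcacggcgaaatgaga
IARS1, chr9:92293678-92293750, minus strand: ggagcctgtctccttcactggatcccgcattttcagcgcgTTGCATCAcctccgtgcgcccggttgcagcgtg
AARS1, chr16:70289661-70289733, minus strand: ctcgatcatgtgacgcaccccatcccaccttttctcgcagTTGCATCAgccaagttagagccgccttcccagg
YARS2, chr12:32756062-32756134, minus strand: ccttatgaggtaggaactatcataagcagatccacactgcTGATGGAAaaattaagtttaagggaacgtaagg

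All 7 cytosolic holders of TGATGNAA fell, 4 of them beyond 0.5, with a median log2 fold change of -0.54. Of all genes tested 21.9% fell, and 7.56% fell beyond 0.5. Among the 12 cytosolic members with a promoter and no match, 7 fell, 1 of them beyond 0.5, 5 did not pass, and the median was -0.21. WARS1 and SARS1 were among the 12 and fell without the pattern. YARS2, the mitochondrial holder, did not pass the test (log2 fold change 0.10, SE 0.0961, adjusted p = 0.447). The first base of the match lies 4 bases before the start in MARS1, 33 in GARS1 and 187 in AARS1. In MARS1 the match runs across the start, and in TARS1 it lies just after the start. A match is a description of letters and was not tested as a site.

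The other patterns searched were those of IRF, STAT and E-box sites. GAAANNGAA, a core of IRF binding sites, was found in 5 of 19 cytosolic promoters (AIMP1, EEF1E1, GARS1, IARS1 and WARS1) and 1 of 14 mitochondrial promoters (EARS2), against 9.86% of all genes. The log2 fold changes of these holders were -0.16 (AIMP1, which did not pass), -0.39 (EEF1E1), -0.57 (GARS1), -0.54 (IARS1), -0.65 (WARS1) and 0.27 (EARS2). TTCNNNGAA, the core of STAT sites, was found in CARS1, TARS1 and WARS1 and in PARS2 and WARS2, against 9.38% of all genes. Its holders were at -0.39 (CARS1), -0.62 (TARS1), -0.65 (WARS1), -0.34 (PARS2, which did not pass) and -0.52 (WARS2). GARS1, IARS1, CARS1 and TARS1 also hold TGATGNAA, and no pattern was tested. WARS1, the interferon-induced member, held both GAAANNGAA and TTCNNNGAA. Their first bases lie 55 and 142 bases before the downstream of its RefSeq starts. The promoter of its upstream start, chr14:100376278-100376577, held none of the patterns searched. Which start the WARS1 reads came from was not tested. The windows on the minus strand of chromosome 14 are printed because IRF1 is the gene knocked down.
WARS1, GAAANNGAA, chr14:100375374-100375422: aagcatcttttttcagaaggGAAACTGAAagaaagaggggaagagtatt
WARS1, TTCNNNGAA, chr14:100375461-100375509: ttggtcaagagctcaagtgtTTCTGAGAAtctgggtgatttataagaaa

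CACGTG, the E-box bound by MYC and its partners, was found in AIMP2 and IARS1 and in CARS2, EARS2 and MARS2, against 8.78% of all genes. Of these 5 genes 2 fell, 2 rose and 1 did not pass, where 21.9% of all genes tested fell and 20.3% rose.

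The remaining cytosolic members that fell did so by less than 0.5. SARS1 (seryl, log2 fold change -0.44, SE 0.0504), LARS1 (leucyl, -0.42, SE 0.0387) and CARS1 (cysteinyl, -0.39, SE 0.0504) were at between 73.5% (SARS1) and 76.2% (CARS1) of their NC levels. EPRS1, the fused enzyme that charges both glutamate and proline tRNA, was at 79.7%, and NARS1, for asparagine, at 80.4%. Smaller decreases were measured for FARSB, the beta subunit of the phenylalanyl enzyme (84.2%, adjusted p = 5.06e-04), for AARS1, the alanyl enzyme (88.4%, adjusted p = 5.71e-06), and for KARS1, the lysyl enzyme (88.4%, adjusted p = 4.46e-04). In each of these genes both sh-IRF1 libraries lay below both NC libraries. Each of the cytosolic synthetases that fell also passed the test with any single library left out.

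The 6 cytosolic members that did not pass were VARS1, QARS1, FARSA, RARS1, HARS1 and the scaffold AIMP1. VARS1, the valyl enzyme, had normalized counts of 7611 and 7594 in NC and 7519 and 7582 in sh-IRF1, and its 95% confidence interval for the log2 fold change ran from -0.075 to 0.055. QARS1, the glutaminyl enzyme of the complex, had 4190 and 4229 in NC and 4250 and 4420 in sh-IRF1 (interval -0.036 to 0.12). FARSA, the alpha subunit of the phenylalanyl enzyme, had an interval of -0.12 to 0.036 and RARS1, the arginyl enzyme, one of -0.13 to 0.11. HARS1, the histidyl enzyme, was less precise, with an interval of -0.28 to 0.011. For these 5 enzymes the intervals leave out a decrease as large as that of TARS1, WARS1, MARS1, GARS1 or IARS1. FARSA and FARSB make one enzyme together, and their log2 fold changes were -0.04 (SE 0.0381) and -0.25 (SE 0.0588), a difference that was not tested.

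Decreases were measured both within and outside the multi-synthetase complex, and in both classes of enzyme. In the complex 5 of 7 synthetases fell, 2 of them beyond 0.5, with a median log2 fold change of -0.33. Outside the complex 9 of 12 cytosolic synthetases fell, 3 of them beyond 0.5, with a median of -0.35. Class I and class II enzymes differ in the fold of the catalytic domain, and 6 of 9 cytosolic class I enzymes (median -0.42) and 7 of 9 class II enzymes (median -0.25) fell, leaving aside EPRS1, which holds one domain of each class. For comparison, 21.9% of all genes tested fell, and 7.56% fell beyond 0.5. None of these differences between groups was tested.

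Among the scaffold proteins, AIMP2 had normalized counts of 1062 and 1043 in NC and 761 and 769 in sh-IRF1 (72.7% of NC, log2 fold change -0.46, SE 0.0724, limma adjusted p = 7.92e-07). EIF2AK1 on the opposite strand accounts for most of the 29.1% of its exonic length that other genes share. EEF1E1 had 256 and 267 in NC and 226 and 176 in sh-IRF1, which passed narrowly (log2 fold change -0.39, SE 0.146, limma adjusted p = 0.0271). It did not pass without sh-IRF1 replicate 2 (-0.21), without NC replicate 2 (-0.36) or in DESeq2, and 18.8% of its exonic length is shared with other genes, mostly a readthrough gene. AIMP1 had an adjusted p of 0.108.

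Mitochondrial synthetases were expressed at lower levels and were measured less precisely. Per kilobase of the canonical transcript, the NC level ran from 232 (FARSB) to 4429 (TARS1) normalized counts in cytosolic synthetases, with a median of 1849, and from 32.5 (SARS2) to 949 (IARS2) in mitochondrial synthetases, with a median of 165. Standard errors of the log2 fold change ran from 0.0303 to 0.0727 in the first group and from 0.0426 to 0.259 in the second. The median standard error was 0.0381 for cytosolic and 0.0918 for mitochondrial synthetases, so a change the size of that in AARS1 (-0.18) is within 2 standard errors at the mitochondrial median.

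LARS2, the mitochondrial leucyl-tRNA synthetase (ENSG00000011376, chr3:45388561-45554726, plus strand), rose the most of all members. Its normalized counts were 709 and 738 in NC and 1137 and 976 in sh-IRF1. The sh-IRF1 libraries held 146% of the NC level (log2 fold change 0.54, SE 0.0771, limma adjusted p = 9.17e-08) and lay above both NC libraries. The change was 0.43 without sh-IRF1 replicate 1 and still passed the test at any size.

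WARS2, the mitochondrial tryptophanyl enzyme (ENSG00000116874, chr1:119031216-119140654, minus strand), was the mitochondrial member that fell. It had normalized counts of 364 and 331 in NC and 276 and 211 in sh-IRF1 (70.0% of NC, log2 fold change -0.52, SE 0.133, limma adjusted p = 0.00109). The sh-IRF1 replicates differed by more than the nearest NC and sh-IRF1 libraries did, and without sh-IRF1 replicate 2 the change was -0.33 and no longer passed (adjusted p = 0.0980). Without NC replicate 1 (-0.45) and with scaling to total reads (-0.48) WARS2 passed but not beyond 0.5.

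The other mitochondrial increases were small. EARS2, the glutamyl enzyme, had 753 and 671 normalized counts in NC and 835 and 884 in sh-IRF1 (121% of NC, log2 fold change 0.27, SE 0.0797, limma adjusted p = 0.00457). CARS2, the cysteinyl enzyme, had 1102 and 1055 in NC and 1183 and 1329 in sh-IRF1 (116%, 0.22, SE 0.0670, adjusted p = 0.00710). AARS2, the alanyl enzyme, had 611 and 568 in NC and 712 and 693 in sh-IRF1 (119%, 0.25, SE 0.0857, adjusted p = 0.0143). In all of these the groups did not overlap, yet without sh-IRF1 replicate 2 none of the 3 passed, and LARS2 was then the 1 member that rose. Without NC replicate 2, EARS2 (0.19) and AARS2 (0.20) did not pass, and AARS2 did not pass without sh-IRF1 replicate 1 (0.23).

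VARS2, the valyl enzyme, had 494 and 544 normalized counts in NC and 599 and 610 in sh-IRF1 and lay at the threshold (log2 fold change 0.22, SE 0.0921, limma adjusted p = 0.0503). A readthrough gene on the same strand shares 63.0% of its exonic length. For SARS2, the seryl enzyme, 48.2% is shared in the same way, and its values of 64.6, 60.6, 62.7 and 72.1 give an interval of -0.42 to 0.62, so that changes within that range could not be detected. IARS2, the isoleucyl enzyme and the most highly expressed of the group, had an interval of -0.11 to 0.059. The remaining members that did not pass had log2 fold changes of -0.34 (PARS2), -0.28 (FARS2), -0.19 (RARS2 and MARS2), -0.18 (NARS2), 0.10 (YARS2), 0.14 (HARS2) and 0.19 (TARS2).

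Setting each cytosolic enzyme beside the mitochondrial enzyme for the same amino acid gave 17 pairs over 16 amino acids. GARS1, KARS1 and QARS1 have no separate mitochondrial partner. The cytosolic fold change was the lower of the pair in 13 of 17, and the log2 ratio of cytosolic to mitochondrial level was below both NC values in both sh-IRF1 libraries in 12. These differences were not tested pair by pair. The widest gap was in the leucyl pair, LARS1 and LARS2, at -0.96 on the log2 scale, followed by the threonyl pair at -0.81, the cysteinyl pair at -0.61 and the glutamyl pair EPRS1 and EARS2 at -0.60.

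Per kilobase, LARS1 was at 9.40 times the level of LARS2 in NC and 4.83 times in sh-IRF1. CARS1 was at 1.49 times the level of CARS2 in NC and 0.973 times in sh-IRF1. The tryptophanyl pair did not follow this, because WARS1 and WARS2 both fell and their ratios overlapped between groups (difference -0.13). Ratios also overlapped for EPRS1 with PARS2, FARSB with FARS2 and RARS1 with RARS2, and for FARSA with FARS2 both sh-IRF1 ratios lay above NC, at a difference of 0.24.

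HARS1 and HARS2 are a head-to-head pair on chromosome 5, with starts 85 bases apart at 140691370 and 140691455. Neither passed the test, with log2 fold changes of -0.14 (SE 0.0727) and 0.14 (SE 0.105).

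**Figure D2:**
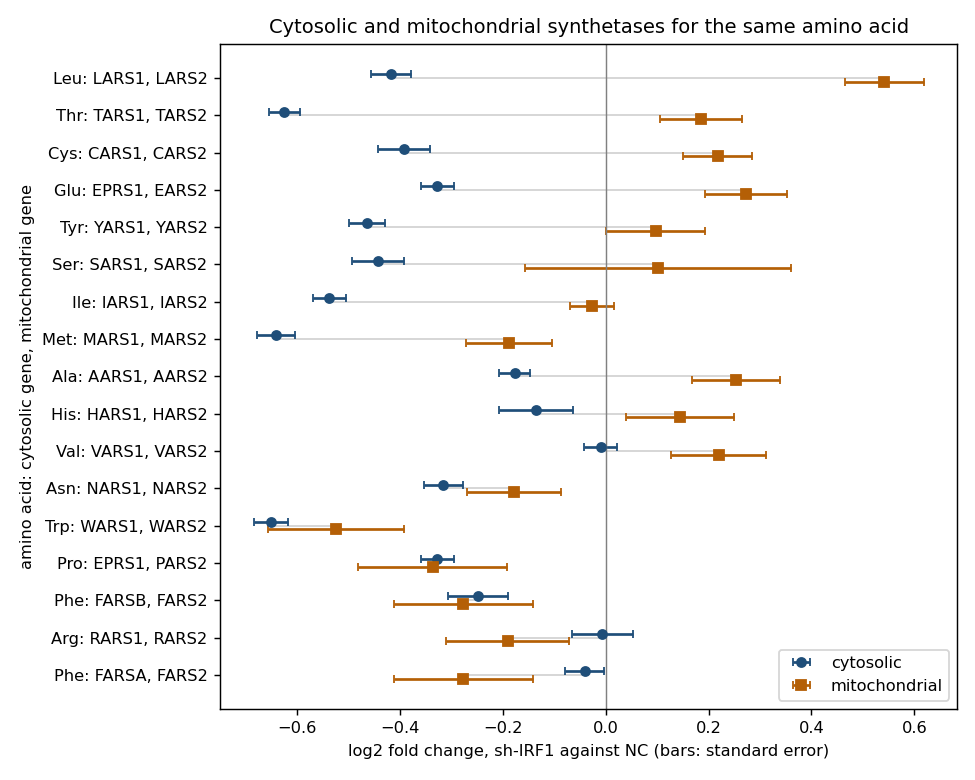
Log2 fold change, sh-IRF1 against NC, of the cytosolic (circles) and mitochondrial (squares) synthetase for the same amino acid in 17 pairs, with standard errors, ordered by the difference. The leucyl pair at the top is 0.96 apart in log2 units, and in 13 pairs the circle lies to the left.

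Summed over the 19 cytosolic synthetases, the level was 113833 and 114713 normalized counts in NC and 88948 and 88075 in sh-IRF1. Over the 16 mitochondrial synthetases it was 11264 and 11277 in NC and 11850 and 11794 in sh-IRF1. With IRF1 knocked down the cytosolic sum was the lower and the mitochondrial sum the higher, with no overlap of the libraries. Much of the mitochondrial rise came from LARS2, whose mean went from 724 in NC to 1057 normalized counts in sh-IRF1. Of the 16 mitochondrial members 11 did not pass the test. The summed level per kilobase of the cytosolic enzymes was 10.2 times that of the mitochondrial enzymes in both NC libraries and 7.67 and 7.63 times in the sh-IRF1 libraries.

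The genes around the synthetases were counted in lists, so that their behaviour can be read beside the members. Over all genes tested 21.9% fell and 20.3% rose, and 7.56% fell and 8.27% rose beyond 0.5. In a list of 26 genes of ATF4 and the amino acid response, 21 fell, 3 rose and 2 did not pass, with 14 falling beyond 0.5, none rising beyond it, and a median log2 fold change of -0.52. PSAT1, an enzyme of serine synthesis, had normalized counts of 14802 and 14983 in NC and 8126 and 8131 in sh-IRF1 (log2 fold change -0.87, SE 0.0290, limma adjusted p = 1.30e-28). DDIT4, a stress-induced inhibitor of mTORC1, fell further (-1.38, SE 0.0528, adjusted p = 3.48e-26).

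ATF4 itself, named after its values were seen, had 9878 and 10049 normalized counts in NC and 7135 and 6889 in sh-IRF1, 70.4% of the NC level (log2 fold change -0.51, SE 0.0318, limma adjusted p = 2.88e-18). The rising genes with the smallest p were PPP1R15A, which directs the removal of phosphate from eIF2alpha (0.49, SE 0.0598, adjusted p = 2.35e-09), and GCN1, which is needed to activate GCN2 (0.23, SE 0.0348, adjusted p = 2.57e-07). Most of the list fell, and a few of its genes rose.

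The factors that carry charged tRNA to the ribosome were counted next. In the cytosolic list 2 of 3 tested genes fell, with a median log2 fold change of -0.18. EEF1A1, the elongation factor that delivers charged tRNA (log2 fold change -0.18, adjusted p = 1.16e-14), and its exchange factor subunit EEF1B2 (-0.35, adjusted p = 2.51e-11) fell and EEF1D was at 0.10 (adjusted p = 0.107). In the mitochondrial list of 6 genes, 2 fell and 2 rose, none beyond 0.5, with a median of -0.13. Over all genes tested 21.9% fell and 20.3% rose, and both lists are too short to set apart from those shares. The elongation factors TUFM (-0.18, adjusted p = 3.52e-05) and TSFM (-0.47, adjusted p = 3.67e-04) fell, and GATB (0.39, adjusted p = 8.61e-04) and GATC (0.35, adjusted p = 0.0152), subunits of the enzyme that makes glutaminyl-tRNA in mitochondria, rose. Other genes share 71.2% of the exonic length of TSFM, most of it on the same strand (67.3%). For GATC 47.6% is shared, with SRSF9 on the opposite strand the largest overlap. GATC did not pass when NC replicate 2 (0.19) or either sh-IRF1 library was left out.

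In a list of tRNA end processing, export and deacylation, 3 of 10 tested genes fell and none rose, with a median log2 fold change of -0.045. The share that fell was near the 21.9% of all genes tested. The leading genes were XPO5, an exportin (log2 fold change -0.42, adjusted p = 2.74e-10), and TRNT1, which adds the CCA end (-0.42, adjusted p = 0.00107). The tRNA exportin XPOT was counted in the amino acid response list and not in this one. XPOT also fell (log2 fold change -0.35, SE 0.0324, limma adjusted p = 8.37e-13).

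Because WARS1 is interferon induced, a list of interferon gamma-induced genes was counted as well. Of 13 tested genes 3 fell and 5 rose, 1 beyond 0.5 in each direction, with a median log2 fold change of 0.026 whose sign changed with single libraries and with the filter. For comparison, 21.9% of all genes tested fell and 20.3% rose. GBP4 (-0.76, adjusted p = 1.07e-07) and PSMB10 (-0.29, adjusted p = 9.46e-04) fell, and B2M (0.38, adjusted p = 7.23e-15) and GBP5 (0.66, adjusted p = 5.77e-05) rose. WARS1 fell while this list had no common direction.

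**Figure D3:**
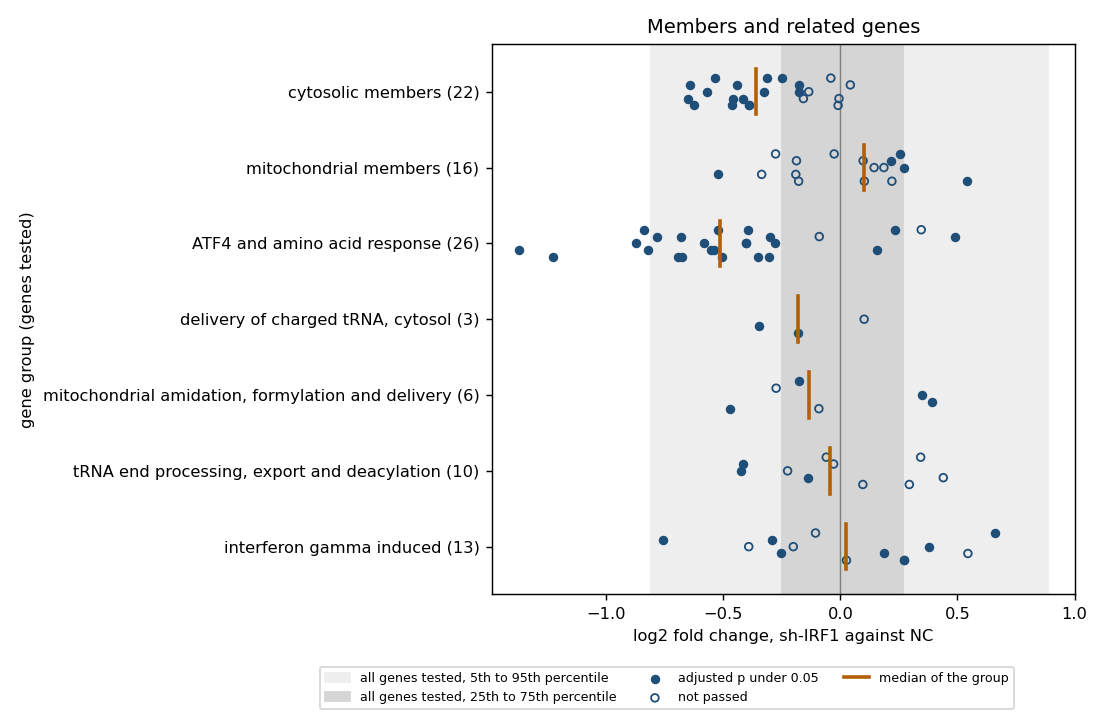
Log2 fold change, sh-IRF1 against NC, of the members by compartment and of 5 related gene lists. Each point is a gene, filled where the limma adjusted p was under 0.05, the orange line is the group's median, and the grey bands are the ranges of all 14120 genes tested. The medians of the cytosolic members (-0.36) and of the amino acid response list (-0.52) lie to the left of the middle band.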

How the data were processed

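RNA of 4 MV4-11 libraries was extracted with Trizol and prepared with a TruSeq RNA kit. The submitters' processing notes name HISAT2 2.0.5 and hg38, and the study's methods name FPKM and DESeq2. The counting tool, annotation and use of strand are not given in the sources used here. The authors deposited a normalized signal per gene, the reads divided by 1 size factor per library. Reads were recovered as whole multiples of each library's step (100% of values within 0.01 of a whole read); 0 other value columns were present.

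Genes were named through GENCODE (GRCh38) identifiers, and 23456 of 23622 had a symbol. Levels were tested with limma 3.58.1 (R 4.3.3; trend and robust settings) on log2(value + 1), for genes that reached a value of 10 in 2 or more libraries, with Benjamini-Hochberg adjustment over all 14120. Fold changes are on that scale and understate low genes. Calls used an adjusted p under 0.05, alone or with a log2 fold change beyond 0.5. A single value compared 2 against 2 libraries by an exact permutation test could not go below p = 0.333, so none was run. Recovered reads entered edgeR 4.0.16 (TMM) and DESeq2 1.42.0 as alternatives. Levels between genes were compared per kilobase of the Ensembl canonical transcript.

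Genes described in full were those called beyond 0.5 and the 6 with the smallest p in each compartment, and from each related list the 2 with the smallest p in each direction. Members, lists and tests were chosen with earlier results of these data known. A planned comparison of protein sequences was not made. Within NC and within sh-IRF1, replicates differed by more than counting error (chi-square of 2.52 and 2.37 for each gene with 20 to 5000 reads, and of 5.99 and 3.17 for each gene with more).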

Additional observations from a re-analysis of the deposited data

How the results depend on the processing

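With 2 libraries a group, each estimate leans on the spread shared across genes, and mitochondrial members are limited by lower counts. Of 570 values of single members under the alternatives, 535 kept their direction and side of the threshold, 16 newly passed, 10 no longer passed and 9 changed sign, all 9 in members that had not passed. Those 9 were RARS2 at 0.023 without NC replicate 2 (-0.40 to 0.023 by library left out); FARSA at 0.0035, IARS2 at 0.018, VARS1 at 0.034 and RARS1 at 0.038 with scaling to total reads; IARS2 at 0.00081 and 0.0015 without NC replicate 1 and sh-IRF1 replicate 1 (-0.055 to 0.0015); and RARS1 at 0.029 and 0.051 without NC replicate 2 and sh-IRF1 replicate 2 (-0.063 to 0.051). VARS2 and TARS2 were among those that newly passed, in edgeR and elsewhere, and EEF1E1 did not pass in DESeq2. Without a minimum log2 fold change 17 members fell (16 cytosolic) and 4 rose (4 mitochondrial), with 3092 and 2861 of all genes, 3 rising in the amino acid response list and 3 falling and 5 rising in the interferon list. With a minimum of 1, 0 members were called (0 cytosolic, 0 mitochondrial), with 318 and 389 of all genes, 2 falling in the amino acid list and 0 in the interferon list. Scaling to total reads moved the median of all genes to 0.042, of the members to -0.14, of cytosolic members to -0.31, of mitochondrial members to 0.14, of the amino acid list to -0.47 and of the interferon list to 0.070, left 4 members falling beyond 0.5 in place of 6 (4 cytosolic in place of 5, without IARS1, and 0 mitochondrial), raised the members rising at any size from 4 to 6, and left 10 genes of the amino acid list falling and 1 rising beyond 0.5. A minimum value of 50 let 2 mitochondrial members fall and turned the interferon median to -0.040. Leaving out each library in turn gave medians of -0.21 to -0.16 (members), -0.39 to -0.32 (cytosolic), 0.040 to 0.097 (mitochondrial), -0.53 to -0.46 (amino acid list) and -0.021 to 0.072 (interferon list). By library left out, members rising numbered 1 to 4, or 0 to 1 beyond 0.5, all of them mitochondrial, with mitochondrial members falling 0 to 3, or 0 to 1 beyond 0.5; the amino acid list had 0 to 1 genes rising beyond 0.5. The interferon median was -0.021 without NC replicate 1 and -0.014 without sh-IRF1 replicate 2. The labels do not say whether the replicate numbers pair the libraries. The differences between replicates 1 and 2 correlated at r = -0.0154 between the groups over 14120 genes, which are not independent. No shared effect of the replicate number was therefore visible, but such a correlation cannot show how the libraries were made. With the replicate number as a block, 17 members fell and 4 rose, and no member's call changed. The causes were not tested.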
